A study of Mus musculus with 2 samples.

Results

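The genes of the perineuronal net described here were the lecticans Acan, Bcan, Ncan and Vcan, the link proteins Hapln1, Hapln2 and Hapln4, and the tenascins Tnr and Tnc. They are 9 of the 32285 genes listed in the files, were chosen by symbol, and each was found once. RNA was measured with 10x Visium, a method that captures RNA from tissue on a grid of barcoded spots, so that 1 spot pools RNA from a few neighbouring cells or parts of them. The samples were 2 sections, 10 µm thick, cut from fresh-frozen brain of wild-type C57BL/6 mice (the series text names the substrain C57BL/6J), an inbred laboratory strain. Both were labelled ZT12, a label commonly read as zeitgeber time, and they form 1 group with no treatment. They are called sections 1 and 2. The labels give no age or sex and do not say whether the sections came from different animals. The p-values therefore measure only the spread between these 2 sections, which may be technical or come from differences in the tissue sampled.

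Perineuronal nets are lattices of extracellular matrix around the cell bodies and proximal dendrites of certain neurons, and in the forebrain they are best known around fast-spiking interneurons that express parvalbumin (Pvalb). Their backbone is hyaluronan, to which link proteins fasten the lecticans, a family of chondroitin sulfate proteoglycans, while tenascin-R joins lecticans to each other at their other end. The same components also occur in the diffuse matrix, around synapses and, for some members, at the nodes of Ranvier of myelinated axons, and neurons and glia both make them.

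On the mouse assembly GRCm38.p6, each of the 4 lecticans lies next to a link protein gene, with 0 annotated RefSeq genes between the pair. Bcan (brevican, a lectican made by astrocytes and other glia and by some neurons) lies on chromosome 3 from 87987531 to 88002175, and Hapln2 (a link protein known from nodes of Ranvier) lies 18382 bases away at 88020558 to 88027511. Vcan (versican) lies on chromosome 13 from 89655309 to 89743027, and Hapln1 (cartilage link protein) 43476 bases away at 89540529 to 89611832. Ncan (neurocan) on chromosome 8, from 70093085 to 70120863, is 2222 bases from Hapln4 (brain link protein, at 70083529 to 70090862). Acan (aggrecan) lies on chromosome 7 from 79053226 to 79115099, 1927 bases from the link protein gene Hapln3, which is not among the 9 genes. Tnr (tenascin-R) lies on chromosome 1 from 159523729 to 159931729 and Tnc (tenascin-C) on chromosome 4 from 63959785 to 64047015. RefSeq annotates other transcripts overlapping Acan, Ncan, Vcan, Hapln1, Tnr and Tnc, and no source used here says whether counting used strand, so reads from such transcripts could not be told apart from those of the members.

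The 2 neighbouring pairs of members for which RefSeq windows of both genes were matched are shown, since their levels are compared below, with the 250 bases before and 50 after each start, from RefSeq on GRCm38.p6, 5′ to 3′ on the gene's strand. The windows are chr3:88000307-88000606 (minus strand) for Bcan, chr3:88027462-88027761 (minus) for Hapln2, chr13:89742463-89742762 (minus) for Vcan and chr13:89540386-89540685 (plus) for Hapln1. The windows of Bcan and Vcan lie wholly within the gene bounds given above, and the start used for Hapln1 also lies inside its gene. The starts used for these 3 genes are therefore not at the outer ends of the genes, and other starts were not examined. Capitals mark matches to CCAAT or GGGCGG on either strand.
Bcan: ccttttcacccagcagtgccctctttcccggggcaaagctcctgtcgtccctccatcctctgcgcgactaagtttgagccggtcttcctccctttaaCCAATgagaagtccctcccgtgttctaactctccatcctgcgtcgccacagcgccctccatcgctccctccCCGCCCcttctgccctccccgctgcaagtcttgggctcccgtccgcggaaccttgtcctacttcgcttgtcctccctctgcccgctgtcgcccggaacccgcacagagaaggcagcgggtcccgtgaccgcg
Hapln2: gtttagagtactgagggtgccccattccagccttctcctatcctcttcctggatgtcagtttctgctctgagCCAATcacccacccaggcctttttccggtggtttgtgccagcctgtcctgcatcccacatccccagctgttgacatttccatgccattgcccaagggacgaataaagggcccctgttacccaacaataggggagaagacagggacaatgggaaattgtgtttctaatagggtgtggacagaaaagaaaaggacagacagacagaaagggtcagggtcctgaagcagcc
Vcan: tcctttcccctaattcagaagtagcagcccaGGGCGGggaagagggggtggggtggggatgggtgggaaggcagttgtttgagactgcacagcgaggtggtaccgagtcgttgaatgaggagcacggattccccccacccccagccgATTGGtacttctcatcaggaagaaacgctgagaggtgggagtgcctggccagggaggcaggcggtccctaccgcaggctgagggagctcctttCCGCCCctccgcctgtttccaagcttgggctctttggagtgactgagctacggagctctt
Hapln1: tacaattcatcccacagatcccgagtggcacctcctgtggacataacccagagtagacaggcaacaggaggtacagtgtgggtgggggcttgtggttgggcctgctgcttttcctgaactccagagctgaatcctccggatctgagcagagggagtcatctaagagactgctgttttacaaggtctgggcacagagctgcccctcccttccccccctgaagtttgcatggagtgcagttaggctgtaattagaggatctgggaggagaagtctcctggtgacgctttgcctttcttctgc
Of 32841 mouse promoter windows of this length, 37.4% hold CCAAT and 35.7% hold GGGCGG on either strand. Bcan and Vcan hold both, Hapln2 holds CCAAT, and Hapln1 holds neither. The G and C share was 64.0% for Bcan and 52.0% for Hapln2, against a median of 52.7% for all windows, and the ratio of observed to expected CpG was 0.886 for Bcan and 0.0987 for Hapln2. Vcan and Hapln1 had 61.0% and 54.3%, with CpG ratios of 0.441 and 0.136. RefSeq windows were matched for 8 of the 9 members, all but Hapln4. These matches describe the letters only and are no evidence of binding.

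After spots with fewer than 500 UMIs (unique molecules counted) were left out, section 1 had 3030 spots and 58643229 UMIs and section 2 had 2531 spots and 55850965 UMIs. Bcan had 18582 and 17536 UMIs in sections 1 and 2, Hapln4 had 8070 and 5957, Ncan 4401 and 4802, Tnr 3884 and 3741, and Hapln2 1745 and 1647. Acan (296 and 204), Vcan (515 and 424), Hapln1 (510 and 380) and Tnc (269 and 155) were sparse. Acan was seen in 8.61% of spots in section 1 and 7.59% in section 2. For the sparse genes the levels below carry wide counting error, and a difference that was not called is not shown to be absent. All 9 members passed the filter on low counts in the comparison of regions.

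Spots were grouped by lists of anatomical marker genes, none of them a member, and 13 groups had at least 30 spots in each section. Some of these were uneven between sections 1 and 2. The striatum had 49 and 267 spots, the hypothalamus 96 and 330, and the midbrain dopamine area 175 and 41. The lists were checked by regrouping the spots with every other marker of each list held out, and then again with the remaining markers held out instead. Held-out markers were at least 2-fold higher in their group in every section for 7 of 7 dentate gyrus markers, 8 of 8 thalamus, 8 of 8 striatum, 9 of 9 fibre tract, 9 of 9 choroid plexus and ependyma, 7 of 7 meninges, 6 of 7 midbrain dopamine and 6 of 8 hypothalamus markers. The same held for 3 of 6 markers of the hippocampal CA fields and 2 of 8 of deep isocortex, and for none of those of superficial isocortex (0 of 6), claustrum and endopiriform area (0 of 5) and olfactory bulb (0 of 6). The last 5 groups are therefore called by their lists only, and the spots highest in the olfactory bulb list are not taken for that tissue. Levels are given as CPM, the summed UMIs of a gene scaled to the total UMIs of the group. Fewer cells of a type in a spot and less RNA per cell cannot be told apart in any of these values.

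Among the 13 groups, 8 of the 9 members differed (edgeR quasi-likelihood F test, Benjamini-Hochberg adjusted p under 0.05 over all genes), against 56.6% of the 13834 genes tested. Acan was the exception (adjusted p = 0.13). When each group was compared with the mean of the 12 others, 24 of 117 tests passed, 12 of them higher and 12 lower in the group, while the share of all genes called ran from 0.0% to 28.0% over the 13 comparisons. The spread of levels differed between members. The ratio of the highest to the lowest group mean was 3.94 for Hapln2 and between 1.65 and 1.77 for Bcan, Ncan, Hapln4 and Tnr. The ratio of 21.9 for Tnc rests on a group with a mean of 0.51 CPM. For most members the order of neighbouring groups was not resolved: of 12 neighbouring pairs in the order of the means, the values of the 2 sections overlapped in 11 for Acan, Ncan, Vcan, Hapln4 and Tnc, in 10 for Hapln1 and Hapln2, and in 9 for Bcan and Tnr.

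**Figure D1:**
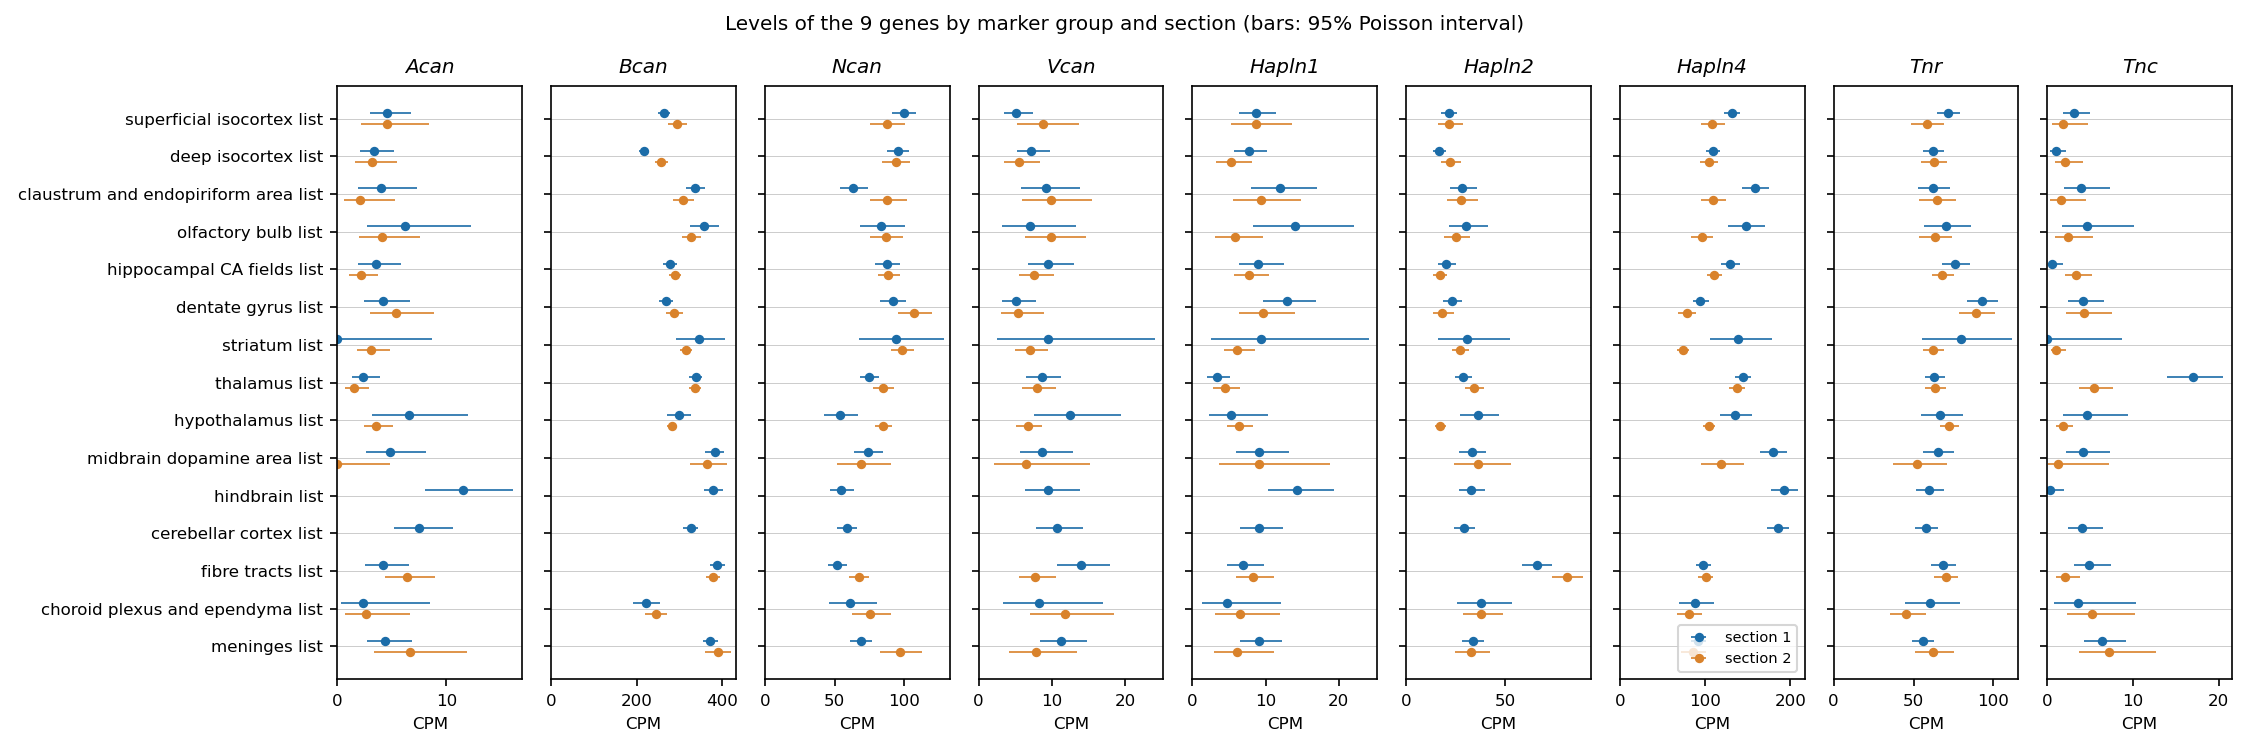
Level of each gene (CPM, horizontal axes starting at 0) in each marker group, with 1 point per section and bars for the exact 95% Poisson interval, which covers counting error only. Hapln2 stands highest in the fibre tracts list in both sections, Tnc is highest in the thalamus list in section 1, and the hindbrain and cerebellar cortex lists are shown for section 1 only.

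In fibre tracts, spots rich in myelin genes, Hapln2, Vcan and Bcan were higher and Ncan was lower than in the other groups. These are 4 of 9 members, against 28.0% of all genes tested. Hapln2 had 65.7 CPM in section 1 and 81.1 CPM in section 2 in fibre tracts, against 16.5 to 37.7 CPM and 17.0 to 37.7 CPM over the other 12 groups. The groups did not overlap, and Hapln2 was higher by a log2 fold change of 1.59 ± 0.11 (SE, edgeR adjusted p = 1.56e-14). Bcan had 388.7 and 377.8 CPM in fibre tracts (log2 fold change 0.42 ± 0.06, adjusted p = 3.18e-07), close to the 372.4 and 389.6 CPM of the meninges group. Ncan had 51.8 and 67.2 CPM, the lowest of the 13 groups in each section (log2 fold change -0.41 ± 0.09, adjusted p = 0.00106). Vcan, which oligodendrocyte precursors are known to make, had 14.0 and 7.73 CPM, and its log2 fold change of 0.51 ± 0.18 (adjusted p = 0.0353) came mainly from section 1, where it was 0.85, against 0.09 in section 2. This call was lost with DESeq2 (adjusted p = 0.117) and without TMM factors (adjusted p = 0.0691).

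The fibre tract group differed in other cell types as well. Of the listed markers of oligodendrocyte precursors 5 of 7 were higher and none lower, as were 6 of 8 astrocyte, 6 of 6 microglia, 4 of 6 endothelium and 5 of 5 red blood cell genes, while 3 of 5 excitatory neuron genes were lower. Their part in the members' levels was not tested.

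The dentate gyrus group differed in 7 of 9 members, against 19.8% of all genes tested, with 3 higher and 4 lower. Tnr, the tenascin that joins lecticans, had 92.8 and 89.2 CPM in the dentate gyrus, against 55.8 to 80.0 CPM and 45.5 to 72.4 CPM in the other groups. It did not overlap them and was 1.38-fold higher (log2 fold change 0.47 ± 0.08, adjusted p = 1.71e-05). Hapln1 was higher, with 12.9 and 9.67 CPM (log2 fold change 0.60 ± 0.19, adjusted p = 0.0248), a level also reached by the olfactory bulb list in section 1 (14.0 CPM). Ncan had 91.5 and 107 CPM (log2 fold change 0.27 ± 0.09, adjusted p = 0.0321). In section 1 the superficial isocortex list (99.5 CPM), the deep isocortex list (95.2 CPM) and the striatum (94.1 CPM) had more Ncan.

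Hapln4 was lower in the dentate gyrus, with 94.5 and 78.8 CPM (log2 fold change -0.42 ± 0.10, adjusted p = 0.00149). Vcan had 5.13 and 5.37 CPM, the lowest mean of the 13 groups, although the superficial isocortex list had 5.14 CPM in section 1 (log2 fold change -0.75 ± 0.25, adjusted p = 0.0331). Hapln2 (-0.50 ± 0.16) and Bcan (-0.20 ± 0.06) were lower as well. The calls for Hapln1, Ncan and Vcan were lost with DESeq2 (adjusted p = 0.0837, 0.0993 and 0.082), and that for Bcan without TMM factors (adjusted p = 0.0618). Directly against the dentate gyrus, the hippocampal CA fields list had 129.7 and 110.3 CPM of Hapln4 (log2 fold change 0.50 ± 0.12, adjusted p = 0.00982), the 1 member called there against 5.05% of all genes. That call was lost when every other marker gene was used to group the spots (adjusted p = 0.0724). In the dentate gyrus 4 of 5 excitatory neuron genes were higher and 1 lower, 4 of 8 companion genes of fast-spiking interneurons, 4 of 7 oligodendrocyte precursor and 4 of 5 red blood cell genes were lower and none higher, and astrocyte genes were mixed (2 of 8 higher, 4 lower). Their part in the members' levels was not tested.

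The thalamus group was set apart by Tnc and Hapln1, and 4 of 9 members were called, against 23.0% of all genes. Tnc, a tenascin best known from developing tissue and from glia, had 17.0 CPM in section 1 (107 UMIs) and 5.43 CPM in section 2 (32 UMIs) in the thalamus, against 0 to 6.39 CPM and 1.02 to 7.24 CPM in the other groups. It was 3.86-fold higher (log2 fold change 1.95 ± 0.27, adjusted p = 6e-07), by 2.79 on the log2 scale in section 1 alone and by 1.15 in section 2 alone. In section 2 the meninges group had more Tnc than the thalamus, with 7.24 CPM. Hapln1 had 3.34 and 4.41 CPM in the thalamus, below all 12 other groups in each section, where it had 4.71 to 14.0 CPM and 5.25 to 9.67 CPM (log2 fold change -1.01 ± 0.21, adjusted p = 0.00036). Hapln4 was higher, with 144.3 and 137.1 CPM (log2 fold change 0.42 ± 0.08, adjusted p = 8.33e-05), and Bcan by 0.18 ± 0.06 (adjusted p = 0.0204). The call for Bcan was lost without TMM factors (adjusted p = 0.0887). Acan had 2.38 and 1.53 CPM there, from 15 and 9 UMIs, and its log2 fold change of -0.90 ± 0.34 did not pass the test (adjusted p = 0.0516). Companion genes of fast-spiking interneurons were divided there (2 of 8 higher, 6 lower), 4 of 5 red blood cell genes were lower, and 1 of 7 oligodendrocyte precursor genes was higher, and their part was not tested.

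Of the remaining groups, the midbrain dopamine area had higher Hapln4, with 180 and 118.4 CPM (log2 fold change 0.52 ± 0.10, adjusted p = 0.0012) and higher Bcan (0.31 ± 0.07, adjusted p = 0.00319), which are 2 of 9 members against 5.65% of all genes. For Hapln4 the log2 fold change was 0.59 in section 1 alone and 0.26 in section 2 alone, where the thalamus had more. The meninges group had higher Bcan (0.32 ± 0.06) and lower Hapln4 (-0.36 ± 0.10), 2 of 9 against 22.0%. The deep isocortex list had lower Bcan (-0.44 ± 0.06), with 217.4 and 257.8 CPM, and lower Hapln2 (-0.65 ± 0.15), 2 of 9 against 19.6%. Hapln2 was lower in the CA fields list (-0.68 ± 0.15; 1 of 9 against 16.0%), and Bcan in the choroid plexus group (-0.39 ± 0.08; 1 of 9 against 18.8%) and in the superficial isocortex list (-0.20 ± 0.06; 1 of 9 against 13.7%). No member was called with edgeR in the striatum (6.64% of all genes), the hypothalamus (7.75%), the claustrum list (0.195%) or the olfactory bulb list (0.0%), where 3, 2, 2 and 1 members had an unadjusted p under 0.05. The striatum of section 1 held only 425179 UMIs, against 5867645 in section 2. In the hypothalamus the sections differed, with 36.0 and 17.2 CPM of Hapln2 and 53.7 and 84.7 CPM of Ncan. Differences in these groups are therefore not shown to be absent. Markers of other cells differed in these groups too. In the midbrain dopamine area 5 of 8 companion genes of fast-spiking interneurons and 4 of 8 astrocyte genes were higher, and 3 of 5 excitatory neuron genes were lower. In the meninges group 7 of 8 astrocyte, 6 of 6 endothelium and 5 of 5 red blood cell genes were higher. Among astrocyte genes 5 of 8 were lower and 1 higher in the deep isocortex list, 4 of 8 were lower in the choroid plexus group, 4 of 8 in the superficial isocortex list and 6 of 8 in the CA fields list. Their part in the members' levels was not tested.

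Between the deep and superficial isocortex lists 0 members were called with edgeR or with DESeq2 (1 at an unadjusted p under 0.05), against 1.45% of all genes.

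**Figure D2:**
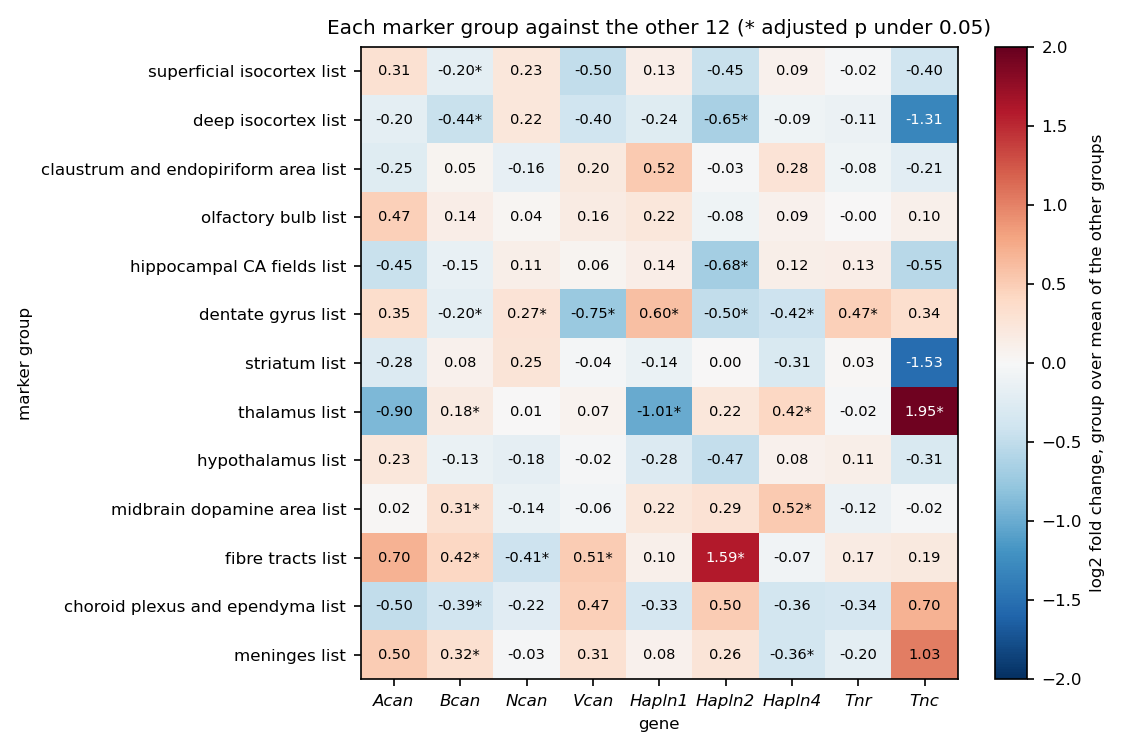
Log2 fold change of each gene (columns) in each marker group over the mean of the other 12 groups (rows); red is higher and blue lower in the group, and a star marks an adjusted p under 0.05. The 24 stars include 7 in the dentate gyrus row and 4 each in the fibre tracts and thalamus rows.

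The spots highest in the hindbrain and cerebellar cortex lists came almost all from section 1 (162 and 251 spots, against 14 and 1 in section 2), so they were described without a test. In section 1 the hindbrain list had 11.6 CPM of Acan (34 UMIs, exact 95% Poisson interval 8.004 to 16.2) and the cerebellar list 7.53 CPM (5.18 to 10.6), against 0 to 6.54 CPM in the 13 tested groups of that section. The 377 spots of section 1 that were assigned to no list had 7.88 CPM of Acan (55 UMIs) and 172.6 CPM of Hapln4. Hapln4 had 193.1 and 185.5 CPM in the hindbrain and cerebellar lists, against 88.3 to 180 CPM in the tested groups. Pvalb had 618.3 and 865.1 CPM there. Tnc in the hindbrain list rested on 1 UMI.

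Neighbouring genes did not all share a pattern across groups. Over the 26 sums of 13 groups and 2 sections, centred within sections, Pearson's r was 0.54 between Bcan and Hapln2, -0.26 between Vcan and Hapln1, and -0.04 between Ncan and Hapln4. Bcan and Hapln2 were both higher in fibre tracts and both lower in the deep isocortex list and the dentate gyrus, whereas in the dentate gyrus Vcan was lower and Hapln1 higher, and Ncan higher and Hapln4 lower. These coefficients describe sums that share libraries and depth, and the sparse counts of Vcan and Hapln1 limit theirs.

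Among 7153 genes with at least 20 CPM, those most like Hapln2 over the same 26 sums were Fa2h (fatty acid 2-hydroxylase, an enzyme of myelin lipids), Tmem88b and Gjc3 (an oligodendrocyte gap junction gene), each with r = 0.96. Bcan was most like Asrgl1 (0.91), Slc4a4 (0.89, a bicarbonate transporter of astrocytes) and Gpr37l1 (0.87, an astrocyte receptor). Hapln4 was most like Bend6 and Nat8l (both 0.89; Nat8l makes N-acetylaspartate in neurons) and Cend1 (0.87, a neuronal gene). Ncan was most like Celf1 (0.86), Rnf165 and Ajm1, and Tnr most like Eif4a1 (0.81), Dcakd and Ncdn. For Tnc these were Creg1 (0.81), Heg1 and Irs2, and for Acan Amdhd2 (0.82), Rbm8a and Angel2. For Vcan they were Rida (0.69), Tmed10 and Rhoq, and for Hapln1 Ythdc1 (0.76), Fbf1 and Epb41l1. The sparse counts of Tnc, Acan, Vcan and Hapln1 limit their coefficients. Acan, for example, had 0 UMIs in the striatum of section 1 and in the midbrain dopamine area of section 2. All these coefficients are the highest of 7153 for a member and were not tested. They do not show that the genes are partners of the members.

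To set the members against parvalbumin, spots were first divided over each whole section into 4 levels of Pvalb per 10000 UMIs: none, below the median of the positive spots, from the median to the 90th percentile, and above it. Hapln4 had 89.8, 110.8, 155.1 and 248.9 CPM from the lowest to the highest level in section 1, and 80.7, 92.2, 118.1 and 167.9 CPM in section 2. Hapln4 thus stood higher at each step in both sections. Acan had 3.36, 3.49, 5.57 and 13.4 CPM in section 1, and 3.21, 3.07, 4.08 and 5.84 CPM in section 2. Its top level rested on 64 and 26 UMIs, with intervals of 10.3 to 17.2 CPM and 3.82 to 8.56 CPM. Without the spots of the cerebellar list, the top level of Acan in section 1 was 13.7 CPM.

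Ncan was lower at the top level than at the second, with 81.6 CPM and then 54.4 CPM in section 1, and 89.4 CPM and then 66.8 CPM in section 2. Tnr had 69.4 CPM at the second level and 56.2 CPM at the top in section 1, and 71.8 and 58.9 CPM in section 2. Bcan was at its highest at the top level in both sections, with 374.1 and 363.4 CPM. Hapln1 reached 15.1 CPM at the top level of section 1 but 7.19 CPM in section 2. These levels mix regions, and other markers moved with them. Gad1, a GABA-synthesizing enzyme, had 670.4 and 601.5 CPM at the top level, against 188 and 282.2 CPM in spots with no Pvalb, and the median UMIs per spot were 16807 and 19299, against 4515.5 and 15961.5.

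**Figure D3:**
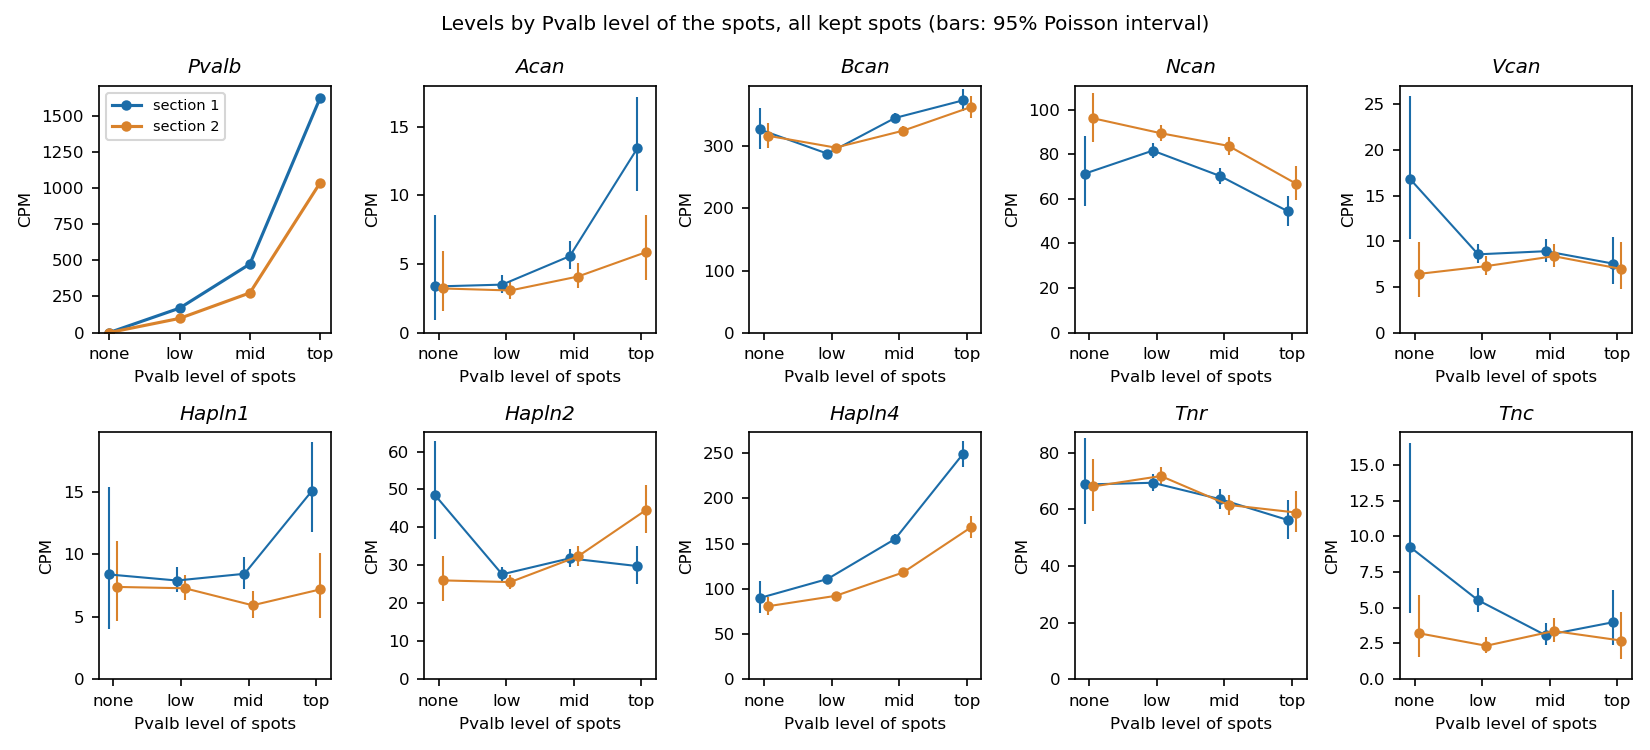
Level of Pvalb and of each gene (CPM, vertical axes starting at 0) in spots with no, low, middle and top Pvalb, with 1 line per section and bars for the exact 95% Poisson interval of the members. Hapln4 stands higher at each step in both sections and Acan is highest at the top level, while Ncan and Tnr are lower at the top level than at the low one.

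Spots were then compared within marker groups. Few or no held-out markers reached 2-fold in the superficial isocortex (0 of 6), claustrum (0 of 5) and deep isocortex (2 of 8) lists. Such groups may mix tissues, so anatomy and Pvalb level could not be fully told apart there. In each of 9 groups, spots at or above the 75th percentile of Pvalb for their group and section (473 and 428 spots, called Pvalb-high) were set against the group's other spots (1410 and 1261). Hapln4 and Bcan were higher and Ncan and Tnr lower in Pvalb-high spots, 4 of 9 members against 14.5% of the 12218 genes tested. Hapln4 had 160.2 and 133.4 CPM in Pvalb-high spots, against 107.4 and 99.3 CPM in other spots. It was 1.45-fold higher (log2 fold change 0.54 ± 0.04, edgeR adjusted p = 7.99e-20), and higher in both sections in 9 of 9 groups. By group its log2 fold change ran from 0.26 ± 0.11 in the CA fields list to 0.98 ± 0.14 in the claustrum list. The effect differed among groups (adjusted p = 0.048, against 1.93% of all genes). In the superficial isocortex list, for example, Hapln4 had 187.2 and 168.2 CPM in Pvalb-high spots, against 116.5 and 87.7 CPM in other spots. Bcan had 337.5 and 325.4 CPM in Pvalb-high spots, against 294 and 304.7 CPM in other spots (log2 fold change 0.17 ± 0.03, adjusted p = 6.37e-06), and was higher in both sections in 6 of 9 groups.

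Ncan had 68.9 and 79.6 CPM in Pvalb-high spots, against 82.5 and 88.4 CPM in other spots (log2 fold change -0.24 ± 0.05, adjusted p = 0.000407). Tnr had 61.5 and 59.4 CPM in Pvalb-high spots, against 70.5 and 71.6 CPM in other spots (log2 fold change -0.20 ± 0.06, adjusted p = 0.0047). Ncan was lower in both sections in 5 of 9 groups and Tnr in 6 of 9, and neither was higher in both sections in any group. Acan had 5.25 CPM (46 UMIs) and 4.87 CPM (45 UMIs) in Pvalb-high spots, against 3.45 CPM (104 UMIs) and 3.23 CPM (92 UMIs) in other spots. Its log2 fold change of 0.55 ± 0.24 did not pass the test (adjusted p = 0.123), and its intervals overlapped within each section. In section 2 the averaged log2 difference was 0.19. Tnc (-0.64 ± 0.29), Vcan (-0.33 ± 0.15), Hapln2 (0.13 ± 0.08) and Hapln1 (-0.01 ± 0.16) did not pass either.

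Pvalb-high spots also held fewer UMIs, with medians over groups of 18390 and 21194.5 per spot, against 24147 and 23990 in other spots. In an alternative, spots with at least 5000 UMIs were thinned to 5000 UMIs for classing only, and spots with fewer were left out. The full counts of the classed spots were then summed. The calls for Ncan (-0.11, adjusted p = 0.179) and Tnr (-0.11, adjusted p = 0.227) were lost, while Hapln4 (0.35, adjusted p = 3.43e-12) and Bcan (0.13, adjusted p = 0.000251) stayed called. Tnr was also lost with DESeq2 (adjusted p = 0.0648).

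Other cells' markers moved with the Pvalb split. Of 8 companion genes of fast-spiking interneurons 6 were higher and none lower, among them Syt2 (a calcium sensor of fast synapses, 1.03 ± 0.05) and Kcnc1 (a fast potassium channel, 0.45 ± 0.04), while Lhx6 (-0.01 ± 0.14) and Erbb4 (0.12 ± 0.10) did not pass. Their summed level ran from 1039 to 1630 CPM over the Pvalb-high groups of section 1 and 945 to 1586 CPM in section 2, against 813 to 1196 CPM and 807 to 1273 CPM in other spots. Of the excitatory neuron genes 4 of 5 were lower and 1 higher, with Slc17a7 (vesicular glutamate transporter) at -0.26 ± 0.03. Astrocyte genes were mixed, with 3 of 8 higher and 3 lower. None of 7 oligodendrocyte precursor genes was called. The part of these in the members' differences was not tested.

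A split by Sst, the marker of another interneuron class, made on the same 9 groups with the same number of spots, called 0 of 9 members with edgeR and with DESeq2, and 0 at an unadjusted p under 0.05, against 1.12% of all genes. Hapln4 had 124.2 and 107.2 CPM in Sst-high spots, against 117.7 and 107.8 CPM in other spots (log2 fold change 0.06 ± 0.04, adjusted p = 0.681). In Sst-high spots 4 of 8 companion genes of fast-spiking interneurons and 3 of 6 genes of other interneurons were higher, and 3 of 8 astrocyte and 4 of 5 red blood cell genes were lower. The classes were then set directly against each other, in 11 groups, with spots that were high for only 1 of the genes. Hapln4 had 160.2 and 132.1 CPM in spots high for Pvalb only, against 110.5 and 93.6 CPM in spots high for Sst only (log2 fold change 0.53 ± 0.06, adjusted p = 9.36e-12). Bcan was higher (0.24 ± 0.04, adjusted p = 2.5e-05), and Ncan (-0.22 ± 0.07, adjusted p = 0.0306) and Tnr (-0.28 ± 0.08, adjusted p = 0.00639) were lower. These were 4 of the 8 members that passed the filter, against 10.8% of all genes. After thinning to 5000 UMIs the calls for Ncan (adjusted p = 0.289) and Tnr (adjusted p = 0.17) were lost, and Ncan was lost with DESeq2 (adjusted p = 0.141). In spots high for Pvalb only, 5 of 5 genes of other interneurons were lower, 3 of 5 excitatory neuron genes were lower and 1 higher, 4 of 8 companion genes were higher and 1 lower, 3 of 8 astrocyte genes were higher and 2 lower, and 4 of 5 red blood cell genes were higher. Their part was not tested.

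Acan had 5.46 CPM (36 UMIs) and 4.65 CPM (34 UMIs) in spots high for Pvalb only, against 3.08 CPM (24 UMIs) and 2.38 CPM (19 UMIs) in spots high for Sst only. The log2 fold change of 0.82 ± 0.42 did not pass the test (adjusted p = 0.233).

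**Figure D4:**
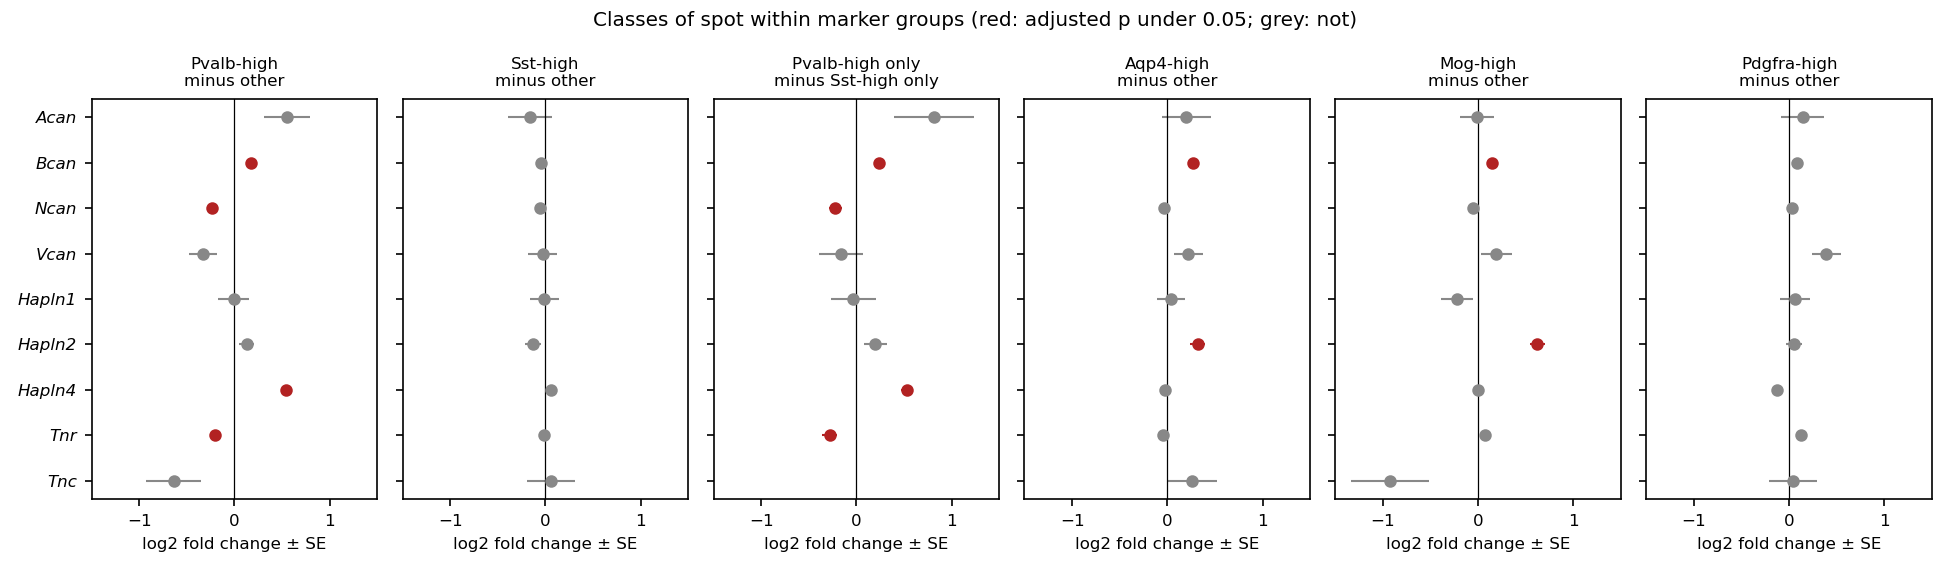
Log2 fold change ± SE of each gene (rows) for 6 comparisons of spot classes within marker groups; red points have an adjusted p under 0.05, and grey points do not. Hapln4 is right of 0 in both comparisons with Pvalb-high spots and near 0 for Sst, Aqp4 and Mog, while Hapln2 is furthest right for Mog.

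In the splits by glial markers Hapln2 was called, which was not called in the Pvalb split, and Bcan was called again. With Mog, a myelin protein of mature oligodendrocytes, Hapln2 had 40.8 and 42.9 CPM in Mog-high spots, against 26.4 and 27.2 CPM in other spots (log2 fold change 0.62 ± 0.08, adjusted p = 2.37e-10). Bcan was higher by 0.14 ± 0.03 (adjusted p = 0.000105), which made 2 of 9 members against 12.9% of all genes. The call for Bcan was lost when the class was cut at the 90th percentile (0.08, adjusted p = 0.422). Hapln4 had 116.8 and 107.5 CPM in Mog-high spots, against 120 and 107.7 CPM in other spots. The effect of the Mog split differed among the 9 groups for Hapln4, Bcan and Ncan (adjusted p = 0.00314, 0.00328 and 0.0448, against 4.03% of all genes). For Hapln4 the log2 fold change was -0.53 ± 0.13 in fibre tracts and 0.48 ± 0.12 in the superficial isocortex list.

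With Aqp4, the water channel of astrocytes, Bcan had 359.5 and 340.1 CPM in Aqp4-high spots, against 287.6 and 300.6 CPM in other spots (log2 fold change 0.27 ± 0.03, adjusted p = 6.26e-13). Hapln2 was higher by 0.32 ± 0.08 (adjusted p = 0.00245), and these 2 of 9 stand against 11.5% of all genes. The call for Hapln2 was lost after thinning (0.20, adjusted p = 0.177) and at the 90th percentile (0.19, adjusted p = 0.519). The effect on Bcan differed among groups (adjusted p = 0.0221, against 1.68% of all genes). All 8 listed astrocyte genes were higher in Aqp4-high spots, Aqp4 itself among them, but so were 4 of 6 microglia and 4 of 5 red blood cell genes. In Mog-high spots 5 of 8 astrocyte, 3 of 7 oligodendrocyte precursor and 4 of 5 red blood cell genes were higher. Their part was not tested.

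With Pdgfra, a receptor of oligodendrocyte precursors, 0 of 9 members were called with edgeR, against 0.277% of all genes, and 4 had an unadjusted p under 0.05. Vcan had 12.1 and 7.81 CPM in Pdgfra-high spots, against 7.59 and 7.12 CPM in other spots (log2 fold change 0.39 ± 0.15, adjusted p = 0.541). The classes of section 1 did not overlap within their intervals, 10.0 to 14.4 CPM against 6.62 to 8.66 CPM, and those of section 2 did.

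The genes that build, cut and bind the net were read from lists of enzymes, proteases and receptors. The counts for Pvalb-high spots stand against the 14.5% of all genes called in that comparison. Of the 17 tested genes of chondroitin sulfate synthesis, which add the sugar chains of lecticans, only B3gat3 passed (0.13 ± 0.03), and the list's median log2 fold change was -0.10, against -0.02 for all genes. None of 3 tested hyaluronan synthase and hyaluronidase genes passed. Among proteases and inhibitors Timp4 was higher (0.24 ± 0.06), and Mmp17 (-0.18 ± 0.05) and Timp2 (-0.12 ± 0.03) were lower, out of 12. The Timp2 difference came mainly from section 2, at -0.22, against -0.01 in section 1. Of 7 receptors of the matrix Rtn4r, the Nogo receptor, was lower (-0.23 ± 0.07), as was Ptprs, a receptor for chondroitin sulfate (-0.10 ± 0.03). The Rtn4r difference came mainly from section 1, at -0.42, against -0.05 in section 2. Of 12 other matrix partners 6 were lower and none higher, among them Nptxr (-0.40 ± 0.03), Reln (-0.40 ± 0.07), Nptx1 (-0.36 ± 0.05) and Crtac1 (-0.21 ± 0.07).

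The list counts for the dentate gyrus stand against the 19.8% of all genes called in that comparison. In the dentate gyrus Cemip, which takes part in hyaluronan breakdown, was higher (1.45 ± 0.17), the 1 called among 4 tested genes of hyaluronan metabolism. Of 18 chondroitin sulfate enzymes 2 were higher, the sulfotransferases Ust (0.81 ± 0.15) and Chst15 (0.63 ± 0.14), and 2 were lower. Nptx1 (1.36 ± 0.09), a neuronal pentraxin, and Nptxr (0.67 ± 0.08) were higher there, and with Crtac1 (0.46 ± 0.12) they made 3 of 12 other matrix partners higher and none lower. Of 15 proteases and inhibitors 2 were higher, Mmp17 (0.96 ± 0.09) and Adamts1 (0.59 ± 0.20), and 3 were lower, among them Timp2 (-0.56 ± 0.09) and Mmp15 (-0.46 ± 0.14). Of 7 receptors 3 were higher and 2 lower, with Rtn4r at 0.61 ± 0.12 and Ptprf at -0.49 ± 0.11.

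In fibre tracts Adamts4, a protease that cleaves lecticans, was higher (1.74 ± 0.16), as were the sulfotransferase Chst3 (1.54 ± 0.27) and the hyaluronan receptor Cd44 (1.12 ± 0.24). The list counts for fibre tracts stand against the 28.0% of all genes called in that comparison. In fibre tracts 2 of 18 chondroitin sulfate enzymes were higher and 3 lower, and 3 of 15 proteases and inhibitors were higher and 1 lower. Of 7 receptors 3 were higher and 3 lower, the lower ones including Rtn4rl1 (-0.78 ± 0.12) and Rtn4r (-0.50 ± 0.14). In the thalamus Adamts15, another protease of this family, was higher (2.19 ± 0.15), as was Xylt2, which starts the sugar chain (1.23 ± 0.09), while Cemip was lower (-1.0 ± 0.22). Of 12 other matrix partners 7 were lower there and 1 higher, against 23.0% of all genes called in the thalamus.

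The marker groups were complemented by 19 clusters of spots found without the members, chosen after the data were seen and described without a test. A cluster led by Syt2, Spp1, Nefm, Vamp1 and Nefh, whose top marker list was that of the hindbrain, with 337 and 84 spots, had 15.3 and 8.004 CPM of Acan and 258.8 and 237 CPM of Hapln4. A small cluster led by Six3 and Gad1, with 39 and 34 spots, had 2900 and 2581 CPM of Pvalb and 254.9 and 210.2 CPM of Hapln4. Its 11.2 and 11.1 CPM of Acan rested on only 5 and 8 UMIs, so their counting error is wide. In the cluster led by Dsp and Lct, whose top marker list was that of the dentate gyrus, Tnr had 122.2 and 111.8 CPM and Hapln4 70.2 and 68.9 CPM. The thalamus cluster, led by Prkcd, had 16.7 and 4.96 CPM of Tnc.

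**Figure D5:**
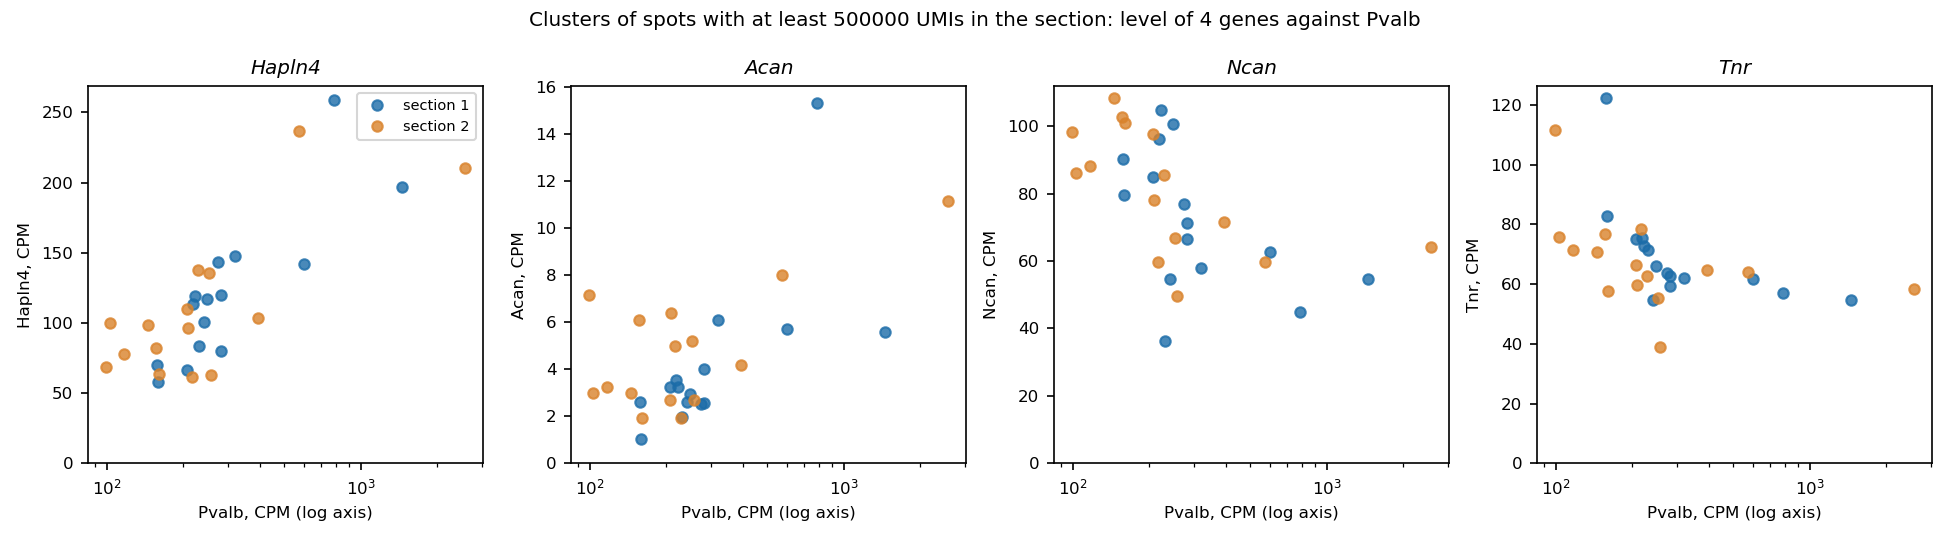
Level of Hapln4, Acan, Ncan and Tnr (CPM, vertical axes starting at 0) against that of Pvalb (CPM, log axis) in clusters with at least 500000 UMIs in the section, with 1 point per cluster and section. Of the plotted points, the highest for Hapln4 are 258.8 CPM in section 1 and 237 CPM in section 2, at 786.8 and 573.2 CPM of Pvalb.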

How the data were processed

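The deposited files hold raw UMI counts per gene and spot, made by the authors from polyA RNA captured on Visium slides. Space Ranger 1.2.2 made the file of section 1 and 2.0.1 that of section 2, per the file headers, whereas both sections have 2.0.1 and mm10 in the submitters' processing notes. No source used here gives the annotation release. The 1965 spot barcodes that the sections share are array positions, not shared cells.

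Spots with at least 500 of their UMIs counted were kept, with a median of 18127 and 21555 UMIs per spot. Each spot went to the list with the highest mean standardized marker level, if it was at least 0.5, which left 12.4% and 12.5% of spots unassigned. Of 110 markers 108 were found. Counts were summed per section and group and fitted with edgeR 4.0.16 (quasi-likelihood, TMM factors, filter on low counts, the section as a block, 26 sums, 12 residual degrees of freedom), with region markers left out and Benjamini-Hochberg adjustment over all genes tested. A call is an adjusted p under 0.05. Class comparisons used a class term per group, averaged over groups, with at least 20 spots per class (10 for Pvalb against Sst). Doublets were not called, because spots pool cells by design. Poisson intervals at 95% cover counting error only.

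Named genes were, by rule, the members, the called genes of each list with the largest changes (at most 4, of the same sign in both sections) and the 3 genes most like each member. The members and lists were chosen with earlier results of these data known, and no list was tested as a set. DESeq2 1.42.0, other filters, thresholds, marker sets and classes were tried as alternatives, and 3 more were chosen after seeing the data (clusters found with leidenalg 0.10.2 without the members, leaving out the claustrum and olfactory bulb lists, and 1 class term for all groups). The fit was tested on simulated data. R 4.3.3 and Python 3.11.15 were used.

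The pairing in the block comes from the design: every tested group of spots occurs in both sections, and sums of 1 section share its library.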

Additional observations from a re-analysis of the deposited data

Results flagged for a closer look

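The effect of a class of spots differed among the 9 marker groups for 5 results (edgeR test of the class by group term, adjusted over all genes). For Hapln4 and the Pvalb split the adjusted p was 0.048, against 1.93% of all genes called, with log2 fold changes of 0.98 ± 0.14 in the claustrum list, 0.75 ± 0.12 in the superficial isocortex list and 0.26 ± 0.11 in the CA fields list. For Hapln4 and the Mog split it was 0.00314, against 4.03% of all genes: Hapln4 was lower in Mog-high spots of the fibre tracts (-0.53 ± 0.13, adjusted p = 0.00304) and higher in those of the superficial isocortex list (0.48 ± 0.12, adjusted p = 0.00497). For Bcan and the Mog split it was 0.00328, with 0.42 ± 0.09 in the superficial isocortex list, 0.35 ± 0.09 in the dentate gyrus and -0.09 ± 0.07 in fibre tracts, the last not past the test. For Ncan and the Mog split it was 0.0448, and fibre tracts were the group called (-0.52 ± 0.17, adjusted p = 0.0396). For Bcan and the Aqp4 split it was 0.0221, against 1.68% of all genes, with 0.53 ± 0.08 in the meninges group and 0.43 ± 0.09 in the dentate gyrus, while the deep isocortex list (-0.00 ± 0.09), the hypothalamus (0.12 ± 0.08) and the thalamus (0.14 ± 0.07) did not pass.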

How the results depend on the processing

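All 37 called results of the members kept their sign in every alternative in which they could be computed. Calls lost were 6 of 37 with DESeq2, 4 of 37 without TMM factors, 1 of 37 without the filter on low counts, 5 of 25 with every other marker gene, 1 of 22 with a marker mean of at least 1.0, 0 of 25 with at least 2000 UMIs per spot, 1 of 25 without the claustrum and olfactory bulb lists, 5 of 12 after thinning to 5000 UMIs, 3 of 12 at the 90th percentile and 1 of 12 with 1 class term. Without the replicate block, which pairs the sums of a section, 19 of 37 calls were lost: 5 members differed among groups in place of 8, 10 of 117 tests passed in place of 24, and 0 members were called between CA fields and dentate gyrus, 1 in the Mog split and 1 in the Aqp4 split. For CA fields against dentate gyrus the count was 2 without TMM factors, 2 with a marker mean of at least 1.0 and 0 with every other marker gene. After thinning, 2 members were called in the Pvalb split, 2 for Pvalb against Sst and 1 in the Aqp4 split. At the 90th percentile 1 was called in the Mog split and 1 in the Aqp4 split, and without the filter 1 in the Pdgfra split. Among uncalled results, Hapln1 in the Pvalb split turned to 0.13 after thinning, 0.19 at the 90th percentile and 0.07 with 1 class term, Vcan there to 0.04 after thinning, and Hapln1 for Pvalb against Sst to 0.24 after thinning and 0.09 with 1 class term. The cause was not tested. With 1 class term Tnc was called lower in Pvalb-high spots (-0.79, adjusted p = 0.0293). The Bcan call in the superficial isocortex list was lost in 5 alternatives and that for Hapln4 in the meninges group with a marker mean of at least 1.0 (adjusted p = 0.185). Leaving out either section leaves no residual degrees of freedom, so these are values with no test. A marker mean of at least 1.0 left too few spots to compare deep with superficial isocortex. Counting error is widest for Acan, Vcan, Hapln1 and Tnc, and 2 sections limit every result.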
